A study of Mus musculus with 4 samples.

Results

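The respiratory chain and ATP synthase are assembled from subunits encoded in 2 genomes, and both sets of transcripts were measured here in single mouse bone marrow cells. Members were all gene rows whose symbol begins with Nduf, Uqcr, Cox4i, Cox5, Cox6, Cox7, Cox8, Atp5, mt-Nd, mt-Co, mt-Cyt or mt-Atp, leaving out names that hold -ps. This gave 101 members of 32265 genes, of which 88 are nuclear and 13 are mitochondrially encoded. The rule used names only and no measured value.

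Cells of C57BL/6 mice, sorted for absence of lineage markers and presence of Sca1 and cKit (LSK, the gate that holds stem and multipotent progenitor cells), were captured by inDrop, a droplet method that tags each transcript with a unique molecular identifier (UMI). The 4 groups had 1 library each and combine genotype, wild type (WT) or chronic myeloid leukaemia (CML), with treatment, none or imatinib. Imatinib blocks the ABL kinase and also KIT and the PDGF receptors. Mice received 400 mg/kg every other day by oral gavage, over 30 days by the protocol and 4 weeks by another label. How CML was induced, how many mice each library came from and their age are not given in the sources used here. With 1 library per group there is no replicate check and no test, and every interval below is a 95% interval for counting error only.

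Electrons from NADH enter the chain at Complex I (the Nduf and mt-Nd genes), pass through Complex III (Uqcr genes and mt-Cytb) and reach oxygen at Complex IV, cytochrome c oxidase (Cox genes and mt-Co1 to mt-Co3). ATP synthase (Atp5 genes, mt-Atp6 and mt-Atp8) uses the proton gradient that results. The mitochondrial genes are transcribed inside the organelle as long precursors that are cut into single messengers, whereas the nuclear genes have separate promoters and their proteins are imported. Quiescent haematopoietic stem cells are known for a low reliance on oxidative phosphorylation compared with their proliferating progeny.

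Where 4 values stand in a row without names, they are for the untreated and then the imatinib library, first of WT and then of CML. The libraries held 3030 to 5139 kept cells and 8245224 to 21283108 UMIs. Median depth was 3637.5 and 5160.5 UMIs per cell in the WT and CML untreated libraries and 1486 and 1198 in the WT and CML imatinib libraries. No cell under 1001 (WT) or 1006 (CML) UMIs was in the untreated files, whereas those of imatinib went down to 200, so treatment and depth cannot be told apart from the labels alone. No deposited cell had more than 20% of its UMIs from genes named mt-, the highest being 19.6% to 20%. Between WT untreated and WT imatinib 1135 cell names were shared (39.6% and 20.4% of the distinct names), against 80 to 340 for the other pairs, and no shared name had an identical column. Xist was at 2370 CPM (UMIs of a gene scaled to a library total of 1000000) in CML untreated and at 1.52 to 95 in the other libraries, and Ddx3y, on the Y chromosome, at 1.5 against 29.4 to 45.2. The CML untreated library therefore differed from the rest in transcripts that mark sex.

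Kit, the gene of cKit, was at 135.9, 176.2, 149.0 and 143.2 CPM, and Ly6a, that of Sca1, at 192.1, 49.6, 95.8 and 51.0 CPM, thus lower in both imatinib libraries. Summed markers of several cell types also differed between the libraries of this progenitor gate. The 12 neutrophil markers summed to 65.9 (WT) and 97.1 (CML) CPM without treatment and to 6796 and 9874 with imatinib. The 12 markers of granulocyte-monocyte progenitors summed to 14400 and 14110 CPM untreated and 40230 and 30960 with imatinib, and the 12 stem cell markers to 1101 and 1462 against 495.4 and 545.1. The 11 plasma cell markers were at 23020 CPM in WT untreated and 291.4 to 6531 elsewhere. The 14 erythroid markers were at 1125, 155.2, 1264 and 3921 CPM and the 10 mast and basophil markers at 183.8, 1463, 872.3 and 2049 CPM. Other lists lay closer together. The 12 monocyte and macrophage markers were at 894.2, 896.9, 545.6 and 657.2 CPM and the 10 dendritic markers at 1087, 851.9, 814.1 and 656.9 CPM. No marker of the lists given here was at 0 in any library. The part of these cell types in the library-wide values was not tested, and the values within cell classes are given further on. In summed libraries, fewer cells of a type and less of a transcript per cell cannot be told apart.

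Mitochondrially encoded transcripts were lower in both imatinib libraries than in their untreated counterparts, and the mitochondrial to nuclear ratio of chain transcripts was lower with them. The 13 mitochondrial members held 6.66% of UMIs in WT untreated, 3.48% in WT imatinib, 6.12% in CML untreated and 4.53% in CML imatinib. The 88 nuclear members held 1.93%, 2.09%, 1.75% and 1.97% in the same order. Mitochondrial UMIs per nuclear UMI were 3.44 (WT) and 3.50 (CML) without treatment and 1.66 and 2.30 with imatinib. This ratio, which no scaling of the libraries can move, was lower by 1.05 (log2) in WT imatinib than WT untreated, lower by 0.60 in CML imatinib than CML untreated, and 0.02 higher in CML untreated than WT untreated.

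The spread over single cells showed the same order of libraries. The median cell had 6.51% mitochondrial member UMIs in WT untreated (quartiles 5.58% and 7.55%) and 3.18% in WT imatinib (2.44% and 4.23%). In CML it was 5.89% untreated (4.98% and 6.93%) and 4.30% with imatinib (3.20% and 5.59%). The interquartile ranges of the WT pair did not overlap, while those of the CML pair overlapped between 4.98% and 5.59%. For nuclear members the medians were 1.87%, 2.02%, 1.66% and 1.94% over the libraries in the same order, and all 4 interquartile ranges overlapped.

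**Figure D1:**
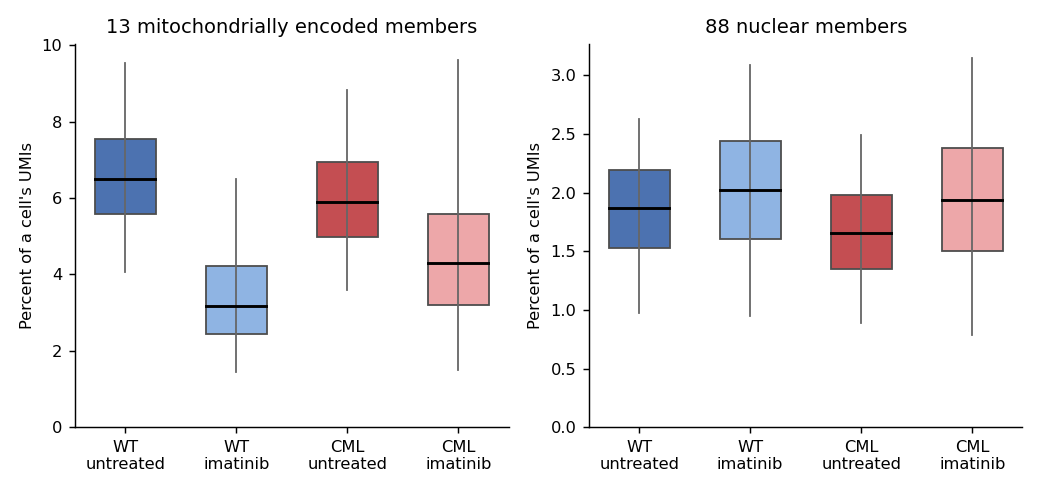
Share of each cell's UMIs that came from the 13 mitochondrially encoded members (left) and the 88 nuclear members (right), in percent, by library. Boxes span the quartiles, black lines are medians and thin lines run from the 5th to the 95th percentile over cells; the WT boxes on the left are apart (median 6.51% against 3.18%) and all boxes on the right overlap.

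The scale on which single members are compared matters for the nuclear set. On CPM, the median log2 ratio of all genes tested was -0.05 in each imatinib against untreated comparison; a gene counts as tested if its higher library had 50 CPM and 50 UMIs or more. TMM scaling, which sets library sizes from the bulk of genes, moved all log2 ratios by -0.32 in CML and -0.25 in WT, by -0.17 for CML untreated versus WT untreated and by -0.24 for CML imatinib versus WT imatinib. The sum of the nuclear members was 0.17 higher (interval 0.160 to 0.176) in CML imatinib than CML untreated and 0.11 higher (0.104 to 0.122) in WT imatinib than WT untreated on CPM, and turned to -0.15 and -0.14 under TMM. Relative to the median of all tested genes, which scaling leaves in place, the nuclear members' median was 0.42 higher in the CML and 0.35 higher in the WT comparison. The mitochondrial members' median was 0.34 and 0.64 below that of all genes.

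**Figure D2:**
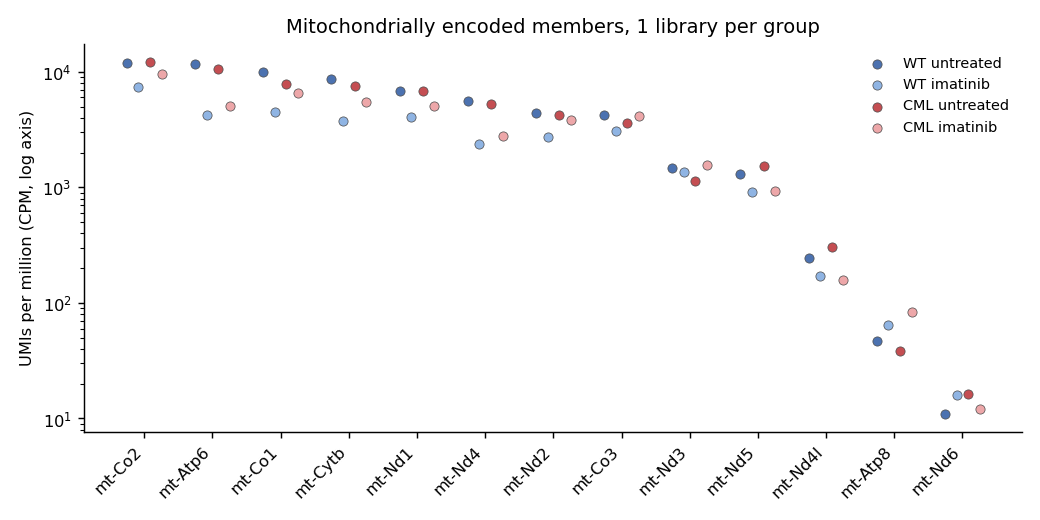
CPM (log axis) of each of the 13 mitochondrially encoded members, ordered by the WT untreated level, with 1 point per library. In 9 of the 12 tested genes both imatinib points lie below their untreated counterparts; mt-Atp8 lies above in both pairs.

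The 13 mitochondrial genes did not move as a block. The 7 Complex I genes summed to 19830 (WT) and 19410 (CML) CPM without treatment and to 11680 and 14350 with imatinib, a log2 ratio of -0.76 in WT and -0.44 in CML. The 3 Complex IV genes differed by -0.80 in WT and -0.23 in CML, and mt-Cytb, the mitochondrial subunit of Complex III, by -1.22 and -0.46. The ATP synthase pair, nearly all of it mt-Atp6, showed the widest difference, -1.45 in WT (interval -1.47 to -1.43) and -1.03 in CML (-1.04 to -1.02).

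mt-Atp6, which encodes the membrane subunit a of ATP synthase, was at 11760 CPM in WT untreated, 4259 in WT imatinib, 10560 in CML untreated and 5109 in CML imatinib. It was 2.76-fold lower with imatinib in WT (interval 2.73 to 2.79) and 2.07-fold lower in CML (2.05 to 2.09). mt-Atp8, which lies just upstream on the same strand and overlaps it (chrM:7766-7969 and chrM:7927-8607, GENCODE vM21 on GRCm38), was at 47.1, 65.0, 38.2 and 83.1 CPM in that order. Its log2 ratio was 1.12 in CML (interval 0.98 to 1.26) and 0.47 in WT (0.30 to 0.64), opposite in sign to mt-Atp6. The mature messenger holds both reading frames, so UMIs near the shared bases cannot be split between them with certainty.

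Among Complex I genes, mt-Nd4 was at 5590 CPM in WT untreated, 2374 in WT imatinib, 5301 in CML untreated and 2784 in CML imatinib, so that neither imatinib library came near an untreated level. Its neighbour mt-Nd4l, which shares a messenger with it, was at 243.5, 172.7, 306.3 and 158.2 CPM. mt-Nd1 was at 6827, 4107, 6849 and 5099 CPM and mt-Nd2 at 4396, 2743, 4248 and 3805 CPM. mt-Nd5 was at 1306, 906.3, 1541 and 930.3 CPM. mt-Nd3 departed from these, with 1461, 1362, 1145 and 1562 CPM: it was 0.45 higher (log2) in CML imatinib than CML untreated and -0.10 in the WT pair. mt-Nd6, the only member on the opposite strand, had 10.9 to 16.3 CPM and was under the level tested in every comparison.

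Of the catalytic core of Complex IV, mt-Co1 was at 10010 CPM in WT untreated, 4511 in WT imatinib, 7901 in CML untreated and 6610 in CML imatinib. The imatinib difference was thus -1.15 in WT against -0.26 in CML, each from separate libraries. mt-Co2 was at 12030, 7434, 12270 and 9575 CPM, which is -0.69 in WT and -0.36 in CML. mt-Co3 was at 4194, 3071, 3578 and 4126 CPM, -0.45 in WT and 0.21 in CML, where TMM scaling gave -0.12. mt-Cytb was at 8742, 3759, 7477 and 5435 CPM. At the 2-fold mark, 4 of 12 tested mitochondrial members were lower in WT imatinib (mt-Atp6, mt-Co1, mt-Cytb and mt-Nd4), where 5.45% of all tested genes were lower. In CML imatinib mt-Atp6 alone was lower and mt-Atp8 alone higher, against 7.95% and 9.40% of all tested genes.

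The rRNAs of the mitochondrial ribosome come from the same organelle transcripts and are not members. Their sum was 5583 CPM in WT untreated, 1765 in WT imatinib, 5602 in CML untreated and 2042 in CML imatinib, a log2 difference of -1.66 in WT and -1.46 in CML.

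Nuclear members as a group stood above the median gene in the imatinib libraries, with few past 2-fold. In CML imatinib versus CML untreated, 4 of 74 tested nuclear members were at least 2-fold higher (5.41%, where 9.40% of all tested genes were) and 0 were 2-fold lower (7.95% of all genes). In WT imatinib versus WT untreated, 2 of 72 were higher (2.78%, against 7.58% of all genes) and 0 lower (against 5.45%). At 1.5-fold the counts were 21 of 74 (28.4%, against 19.1%) and 17 of 72 (23.6%, against 17.1%) higher, and 2 and 0 lower (against 20.2% and 15.3% of all genes). Under TMM scaling no nuclear member was 2-fold apart in either pair, and 39 of 74 and 38 of 72 were above 0, against 55 and 53 on CPM. Over all tested genes, 1999 of 4265 were above 0 in CML and 1912 of 4092 in WT on CPM. At 1.5-fold TMM gave 6 higher and 9 lower in CML and 4 higher and 10 lower in WT; Ndufb7, Ndufb9 and Ndufs6 were higher in both. The 2 pairs share no library: 13 members were 1.5-fold higher in both, which is 61.9% of the CML list and 76.5% of the WT list. Over all tested genes 478 were higher in both, 58.7% of the CML and 68.4% of the WT list.

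**Figure D3:**
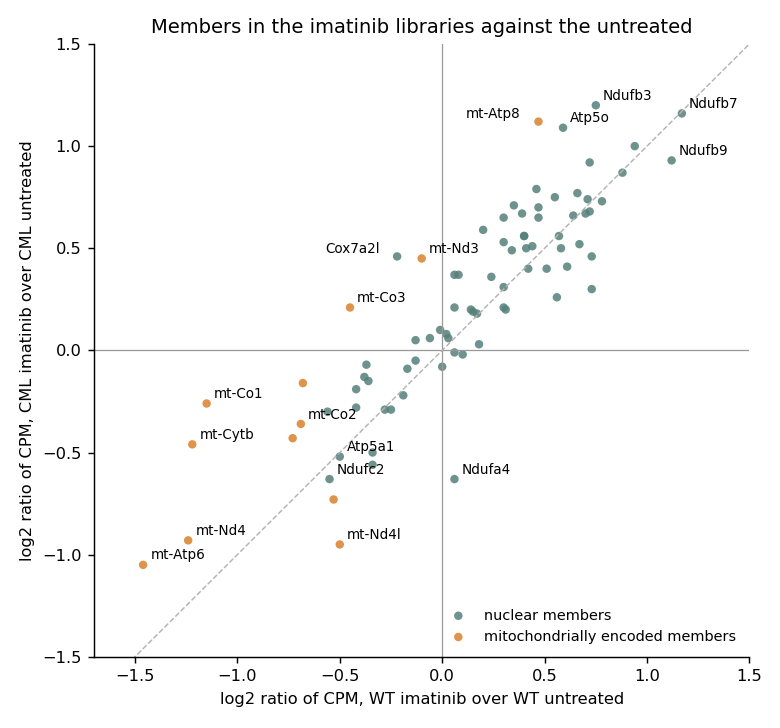
Each point is a member tested in both pairs, placed by its log2 CPM ratio in WT imatinib over WT untreated (horizontal) and in CML imatinib over CML untreated (vertical); the dashed line marks equal values. Of 72 nuclear members 49 were above 0 in both and 15 below 0 in both (33 and 29 under TMM scaling), while 9 of 12 mitochondrial members were below 0 in both. Shared signs were not counted over all genes.

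The members past 1.5-fold came from every complex. Of the 21 members 1.5-fold higher in CML imatinib 13 were Complex I subunits, 1 was the Complex I assembly factor Ndufaf8, 1 of Complex III, 2 of Complex IV and 4 of ATP synthase. In WT imatinib the 17 comprised 9 of Complex I, 2 of Complex III, 1 of Complex IV and 5 of ATP synthase. Complex I subunits thus made 61.9% of the CML and 52.9% of the WT list, and 47.3% and 47.2% of the nuclear members tested. The medians of the tested Complex I subunits were 0.50 in CML and 0.39 in WT, of Complex III subunits 0.36 and 0.30, of Complex IV subunits 0.20 and 0.10 and of ATP synthase subunits 0.20 in each. All of these medians are on CPM and would be lower by 0.32 and 0.25 under TMM, which takes the Complex IV medians of both pairs and the ATP synthase medians below 0.

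Ndufb7, an accessory subunit of the membrane arm, was at 46.8 CPM in WT untreated, 104.9 in WT imatinib, 44.0 in CML untreated and 98.4 in CML imatinib. The imatinib libraries were 2.24-fold higher in WT (interval 2.02 to 2.49) and 2.24-fold in CML (2.04 to 2.45). Ndufb9, of the same arm, was at 69.8, 151.4, 77.6 and 147.9 CPM, 2.17-fold and 1.91-fold. Both genes separated the treated from the untreated libraries in either genotype. Ndufb3, a small single-span subunit, was at 119.2, 201.0, 81.4 and 186.9 CPM, 1.69-fold higher in WT and 2.30-fold in CML. Ndufs6, a zinc-binding subunit of the peripheral arm, was at 81.9, 157.2, 75.9 and 152.0 CPM, 1.92-fold and 2.0-fold. Ndufa11, at 54.2, 93.1, 52.2 and 86.5 CPM, was 1.72-fold higher in WT.

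Some Complex I subunits went the other way. Ndufc2, an accessory subunit of the membrane arm, was at 378.0 CPM in WT untreated, 258.1 in WT imatinib, 356.9 in CML untreated and 229.9 in CML imatinib, a log2 ratio of -0.55 in WT and -0.63 in CML. Ndufv2, an iron-sulfur subunit of the NADH-oxidizing tip, was at 178.5, 141.2, 194.1 and 132.0 CPM, -0.56 in CML. The X-linked subunits Ndufa1 and Ndufb11 were higher in both imatinib libraries: Ndufa1 was at 173.5, 231.0, 141.9 and 200.5 CPM, and Ndufb11 at 199.2, 263.5, 156.4 and 230.8 CPM. Of the 8 assembly factors under the Nduf prefix, 3 were tested in CML and 2 in WT. Ndufaf4 was at 53.2, 48.6, 64.9 and 62.7 CPM and Ndufaf8 at 53.7, 74.1, 40.0 and 65.1 CPM.

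Of the 8 nuclear Complex III subunits 7 were above 0 in each pair on CPM. Uqcrfs1, the Rieske iron-sulfur protein, was at 117.7 CPM in WT untreated, 145.1 in WT imatinib, 93.4 in CML untreated and 146.2 in CML imatinib. Uqcrc1, a core subunit, was at 122.2, 203.0, 121.3 and 166.8 CPM. Uqcrc2, the other core subunit, was the exception in both pairs, with 221.1, 186.5, 224.1 and 183.5 CPM. The partners of the same core therefore had opposite signs.

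ATP synthase also held members of both signs. Atp5b, the catalytic beta subunit, was at 193.4 CPM in WT untreated, 355.8 in WT imatinib, 192.4 in CML untreated and 352.0 in CML imatinib, 1.84-fold and 1.83-fold higher with imatinib. Atp5a1, which encodes the alpha subunit that alternates with beta in the same ring, was at 866.9, 613.4, 860.3 and 600.6 CPM, -0.50 (log2) in WT and -0.52 in CML. The sign of both differences was the same under TMM. Atp5o, the subunit of the stalk linking the head to the membrane part, was at 121.2, 182.8, 94.3 and 201.4 CPM, 1.51-fold higher in WT and 2.14-fold in CML. Atp5j, Atp5h and Atp5g2 were lower with imatinib in both genotypes, for example Atp5h at 589.4, 453.4, 445.8 and 408.4 CPM.

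The 3 genes for the identical mature c subunit of the rotor differed from each other. Atp5g1 was at 385.0 CPM in WT untreated, 609.9 in WT imatinib, 330.4 in CML untreated and 564.9 in CML imatinib. Atp5g2 was at 943.4, 703.7, 820.0 and 675.5 CPM. Atp5g3 was at 893.7, 895.8, 906.4 and 856.6 CPM. Atp5g1 was 0.66 and 0.77 higher with imatinib in WT and CML, Atp5g2 was at -0.42 and -0.28, and Atp5g3 at 0.00 and -0.08. TMM scaling leaves these signs for Atp5g1 and Atp5g2.

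Complex IV has tissue isoforms for several subunits, and marrow cells used the common forms. Cox4i2, Cox7a1, Cox7b2, Cox8b, Cox8c and Ndufa4l2, which are known from lung, muscle or testis or as low-oxygen forms, reached at most 1.82 CPM in any library. The matching common genes were far above this: Cox4i1 was at 610.4 to 787.5 CPM, Cox7a2 at 218.2 to 437.0 and Cox8a at 1133 to 1297. Cox7a2 was 1.65-fold higher in WT imatinib (265.4 to 437.0 CPM) and 1.89-fold in CML imatinib (218.2 to 413.3 CPM). Cox7a2l, a relative of Cox7a2, was at 381.3 CPM in WT untreated, 326.6 in WT imatinib, 269.1 in CML untreated and 371.4 in CML imatinib. Ndufa4, now assigned to Complex IV despite its name, was at 486.0, 505.1, 574.7 and 372.2 CPM, -0.63 in CML and 0.06 in WT on CPM.

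The heart and muscle form Cox6a2 was measured in the untreated libraries. It was at 20.4 CPM in WT untreated, 3.52 in WT imatinib, 11.2 in CML untreated and 1.68 in CML imatinib, while the common form Cox6a1 was at 584.6, 437.8, 491.6 and 429.6 CPM. A Cox6a2 UMI was found in 3.93% of 3030 WT untreated cells (exact binomial interval 3.26% to 4.68%) and 2.84% of CML untreated cells (2.27% to 3.49%), with up to 7 and 14 UMIs in a cell. With imatinib the shares were 0.430% and 0.234%, at lower depth, and the log2 ratio of CPM was -2.54 in WT (interval -3.15 to -1.98) and -2.74 in CML (-3.57 to -2.01). In WT untreated 79.6% of Cox6a2 UMIs lay in cluster 5, which is led by Rgs1, Ctla2a and Dntt. This cluster held 64.3% of the cells there and 7298220 of 13153658 UMIs of all genes. In CML untreated 54.6% of Cox6a2 UMIs lay in monocyte and macrophage-like cells, which held 28.0% of the cells and 8525024 of 21283108 UMIs of all genes. Erythroid-like and T cell-like cells held 0 or 1 Cox6a2 UMI in each library.

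The testis form Cox6b2 was high in erythroid-like cells. It was at 225.6 CPM there in WT untreated, 216.2 in CML untreated and 127.5 in CML imatinib. In monocyte and macrophage-like cells of the 4 libraries it was at 31.1 to 43.8 CPM, and in T cell-like cells of both untreated libraries it had 0 UMIs. Erythroid-like cells held 17.2%, 18.9% and 41.7% of all Cox6b2 UMIs in these 3 libraries, from 107, 122 and 243 cells.

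Short promoter motifs known from chain genes were looked up in RefSeq windows of the GRCm38.p6 assembly, from 250 bases before to 50 after each start, on both strands. Of 88 nuclear members 73 had a window. The core of the site bound by nuclear respiratory factor 1, NRF1 (GCGCATGCG), was in 10 of 73 members (13.7%) and in 1.95% of 27025 genes with a window, and in 10.1% of 69 mitochondrial ribosome genes. The YY1 core (AAGATGGCG) was in 8 (11.0%, against 1.64% of all and 11.6% of mitochondrial ribosome genes), and the ETS motif (CCGGAAG) in 16 (21.9%, against 9.93% and 37.7%). The GC box (GGGCGG) was in 45.2% against 38.2% of all genes, and TATAAA in 9.59% against 15.7%. The 30 bases around matches of the first 2 are shown because these had the largest ratios of member share to all-gene share; mitochondrial ribosome genes held them about as often. For NRF1 these are the 7 members in which the matches of both strands overlap into a palindrome, while Atp5l, Ndufa8 and Uqcr11 have the core on a single strand. Capitals mark the match, and each stretch is written along the gene's own strand.
Atp5g2, NRF1, chr15:102671070-102671099, minus strand: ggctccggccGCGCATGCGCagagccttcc
Atp5k, NRF1, chr5:108434430-108434459, minus strand: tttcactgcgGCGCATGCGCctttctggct
Cox6a1, NRF1, chr5:115349101-115349130, minus strand: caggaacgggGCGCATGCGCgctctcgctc
Ndufa11, NRF1, chr17:56717692-56717721, plus strand: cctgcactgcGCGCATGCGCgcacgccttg
Ndufaf4, NRF1, chr4:24897960-24897989, plus strand: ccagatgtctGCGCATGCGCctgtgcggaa
Ndufaf5, NRF1, chr2:140170652-140170681, plus strand: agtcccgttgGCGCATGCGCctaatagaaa
Uqcrc1, NRF1, chr9:108936668-108936697, plus strand: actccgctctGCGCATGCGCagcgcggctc
Atp5j, YY1, chr16:84835045-84835074, minus strand: aagtgtaggaAAGATGGCGgagtcttagct
Atp5j2, YY1, chr5:145191499-145191528, minus strand: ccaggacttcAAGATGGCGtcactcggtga
Ndufa9, YY1, chr6:126849096-126849125, minus strand: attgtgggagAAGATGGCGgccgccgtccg
Ndufaf8, YY1, chr11:120098934-120098963, plus strand: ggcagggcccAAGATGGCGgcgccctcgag
Ndufc1, YY1, chr3:51408914-51408943, minus strand: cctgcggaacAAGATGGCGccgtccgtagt
Ndufs4, YY1, chr13:114388045-114388074, minus strand: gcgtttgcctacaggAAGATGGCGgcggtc
Ndufs6, YY1, chr13:73328433-73328462, minus strand: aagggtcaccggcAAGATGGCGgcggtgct
Ndufs7, YY1, chr10:80249463-80249492, plus strand: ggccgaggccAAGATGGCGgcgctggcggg

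The YY1 cores of Ndufa9, Ndufaf8, Ndufc1, Ndufs4, Ndufs6, Ndufs7 and Atp5j2 begin 11 to 36 bases after the annotated start, and that of Atp5j begins 88 bases before it. The NRF1 palindromes begin between 162 bases before and 31 after the start. The 9 tested NRF1 holders had log2 ratios from -0.28 to 0.73 in CML imatinib versus CML untreated and from -0.42 to 0.78 in the WT pair. The 8 YY1 holders were at -0.50 to 1.0 in CML and -0.34 to 0.94 in WT. Each motif thus had holders of both signs. A motif match is a description of letters, not of binding.

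The upstream bases of Ndufb7, at least 2-fold higher with imatinib in both pairs, and of Ndufc2, lower in both, are shown for comparison (150 bases before the RefSeq start, GRCm38.p6, plus strand, chr8:83566608-83566757 and chr7:97399853-97400002). Capitals mark the ETS motif.
Ndufb7: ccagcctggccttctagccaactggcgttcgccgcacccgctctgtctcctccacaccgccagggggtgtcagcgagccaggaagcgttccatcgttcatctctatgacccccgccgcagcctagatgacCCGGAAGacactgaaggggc
Ndufc2: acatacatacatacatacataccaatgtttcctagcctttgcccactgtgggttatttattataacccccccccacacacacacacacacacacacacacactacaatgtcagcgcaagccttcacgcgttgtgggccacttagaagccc
The Ndufc2 window held none of the 5 motifs searched, which says only that these letters are not in it, and had a GC content of 47.3% against 62.7% for Ndufb7.

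Cells were next divided into classes by clustering without any member, ribosomal or sex-linked gene and named from marker lists, where a class is described in a library only with at least 50 cells. Mitochondrial member shares were lower with imatinib in every class that could be compared, 4 in WT and 5 in CML, the unnamed clusters 2 and 5 included. In WT the log2 ratios were -1.04 in granulocyte-monocyte progenitor-like (GMP-like) cells, -1.19 in monocyte and macrophage-like cells, -1.11 in cluster 2 and -0.97 in cluster 5. In CML they were -0.60, -0.58, -0.60 and -0.52 in the same classes and -1.06 in erythroid-like cells. The nuclear share within classes had no such common sign on CPM: it was -0.18 to 0.15 over the 4 WT classes and -0.32 to 0.29 over the 5 CML classes.

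GMP-like cells, with Elane, Mpo and Prtn3 among their 10 leading genes, went from 7.39% mitochondrial member UMIs in WT untreated (82 cells) to 3.6% in WT imatinib (2338 cells). In CML they went from 7.74% (56 cells) to 5.11% (2650 cells). Their nuclear share was 2.16%, 2.11%, 1.89% and 2.05% over the libraries in the same order. Within this class mt-Atp6 differed by -1.54 in WT and -1.1 in CML, mt-Nd4 by -1.39 and -1.29 and mt-Cytb by -1.35 and -0.86. mt-Co3 was at -0.67 and -0.04 and mt-Nd3 at -0.61 and 0.02, so both genes were near 0 in CML in this class, against 0.21 and 0.45 in the whole CML libraries. mt-Atp8 was at 1.1 in CML (interval 0.34 to 1.98) and 0.10 in WT (-0.48 to 0.73).

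Monocyte and macrophage-like cells had 7.23%, 3.18%, 6.60% and 4.40% mitochondrial UMIs over the libraries in the same order, and 2.16%, 2.40%, 1.90% and 2.33% nuclear. The 10 leading genes of this class were Ccr2, Sdf2l1, Emb, Ap3s1, Pdia4, Ly86, Ms4a6c, Ctsc, Cycs and Irf8. It held 15.6%, 5.16%, 28.0% and 1.79% of cells. The summed monocyte and macrophage markers given above did not follow these shares, and CML untreated, with the largest share, had the lowest sum. Monocyte and macrophage-like cells had the highest level of 49 of the 70 nuclear members with at least 50 CPM in WT imatinib and of 31 of 74 in CML imatinib. How often this class was highest over all genes was not counted, so the counts cannot be read as particular to chain members. Cluster 5, which holds 1948 of the WT untreated cells and stayed unnamed, had 6.53%, 3.33%, 5.72% and 3.98% mitochondrial UMIs. Cluster 2, a shallow cluster led by Cxcl12, Sparc and Lpl, had 7.51%, 3.48%, 7.46% and 4.91%. It also stayed unnamed, as only 8.16% of its 3075 cells had a UMI of the stroma and endothelium markers. Cluster 6, led by Hspa1b, Egr1 and Fos, had 6.99% in WT untreated and 5.71% in CML untreated.

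Erythroid-like cells had the highest nuclear shares of the untreated libraries, 2.45% in WT and 2.31% in CML, and held the top level of 36 of 69 and 41 of 67 nuclear members there. This count too was not made over all genes. In CML imatinib erythroid-like cells stood lower for both genomes, at 1.85% nuclear and 3.15% mitochondrial, against 6.92% and 6.56% mitochondrial in WT and CML untreated. Haemoglobin made 1.05% of their UMIs in CML imatinib and 0.00695% and 0.00834% in WT and CML untreated; leaving haemoglobin out gave 1.87% nuclear and 3.19% mitochondrial. Within this class Ndufa4 was at 536.3 CPM in WT untreated, 629.2 in CML untreated and 147.3 in CML imatinib. Ndufaf4, an assembly factor, was at 116.3, 106.5 and 99.7 CPM in these cells.

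Neutrophil-like cells, marked by Ngp, Camp and S100a8 and present in the imatinib libraries, had the lowest mitochondrial shares measured, 1.93% in WT (118 cells) and 2.14% in CML (235 cells), and 1.14% nuclear in each. They held the lowest level of 42 of 70 nuclear members in WT imatinib and 41 of 74 in CML imatinib, a count not made over all genes. These values rest on the clustering: at a finer resolution the neutrophil-like class of CML imatinib took in other cells and had 4.98% mitochondrial and 1.73% nuclear UMIs, and that of WT imatinib 2.99% and 1.67%. Mast and basophil-like cells had 2.97% in WT imatinib and 3.74% in CML imatinib. T cell-like cells had 5.21% mitochondrial and 1.70% nuclear UMIs in WT untreated and 4.95% and 1.40% in CML untreated.

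Plasma cell-like cells of WT untreated had the lowest nuclear share, 0.657%, with 3.76% mitochondrial UMIs. Immunoglobulin genes made 59.1% of their UMIs. Leaving these out gave 9.19% mitochondrial and 1.61% nuclear UMIs. Their mitochondrial to nuclear ratio, in which immunoglobulin has no part, was 5.72, the highest of the classes described.

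**Figure D4:**
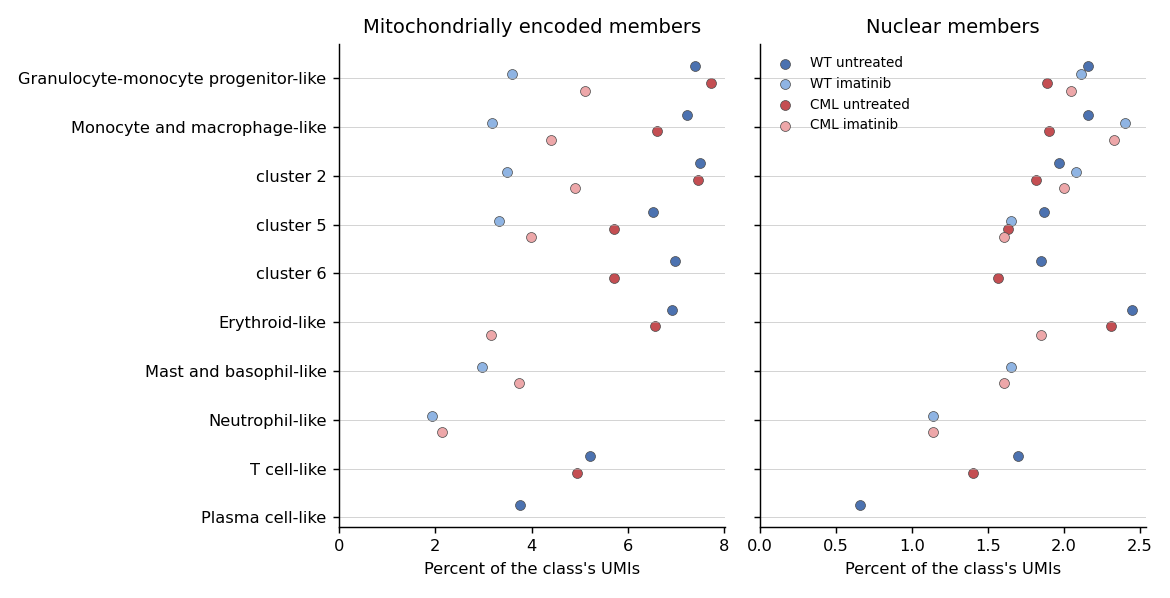
Percent of a cell class's summed UMIs from mitochondrially encoded members (left) and nuclear members (right), 1 point per library with at least 50 cells of the class. On the left every imatinib point lies below the untreated point of its genotype where both exist; on the right the order varies between classes.

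Depth was also compared within libraries. Within WT untreated, nuclear members made 1.68% of UMIs in cells of 1000 to 2000 UMIs and 2.14% in cells of 8000 or more, and in CML untreated 1.52% and 1.81%. The mitochondrial share was 6.78% in both of these bins of WT untreated and 5.49% and 6.18% in those of CML untreated. In cells of 1000 to 3000 UMIs, a window added after the data were seen for the class values, mitochondrial members made 6.72%, 3.52%, 6.34% and 4.81% over the libraries in the same order. Nuclear members made 1.70%, 2.08%, 1.55% and 1.98% there. The window narrows the gap in depth but does not close it, with means of 1943, 1803, 2186 and 1697 UMIs per cell. The nuclear median was then 0.59 in CML against -0.07 for all genes and 0.46 in WT against -0.01. In this window 15 of 71 nuclear members were 2-fold higher in CML imatinib, where 12.0% of all tested genes were, and 11 of 72 in WT imatinib, where 10.6% were. None was 2-fold lower, where 11.3% and 10.9% of all genes were. Atp5b, Atp5k, Cox7a2, Ndufa11, Ndufb7, Ndufb9, Ndufs6 and Uqcr11 were in both lists. Depth within a library follows cell class too: of the 92 CML imatinib cells with 8000 or more UMIs, in which the mitochondrial share was 2.99%, 72 were erythroid-like.

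**Figure D5:**
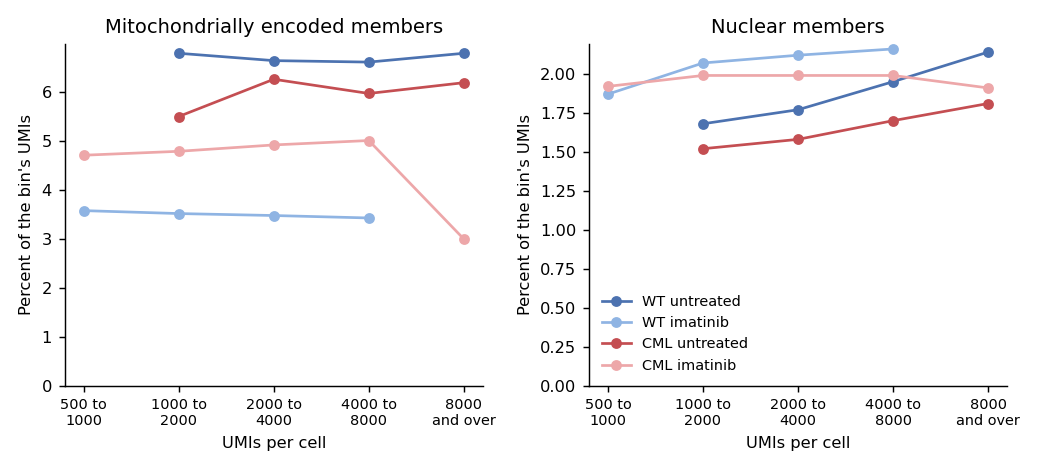
Percent of summed UMIs from mitochondrially encoded members (left) and nuclear members (right) in bins of UMIs per cell, by library, in the bins shown. The mitochondrial lines of the untreated libraries lie above those of the imatinib libraries in every shared bin, and the nuclear lines of the untreated libraries climb with depth.

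CML and WT untreated cells had few members far apart. The sum of mitochondrial members was -0.12 (log2; interval -0.13 to -0.12) and of nuclear members -0.15 (-0.15 to -0.14) in CML untreated relative to WT untreated. On CPM no tested nuclear or mitochondrial member was 1.5-fold apart, where 2.38% of all tested genes were higher and 1.28% lower, nor 2-fold apart, where 0.523% were higher and 0.392% lower. Cox6a2, under the tested level, was 1.83-fold lower (interval 1.53 to 2.19). Of 69 tested nuclear members 56 were below 0, by at most 0.55 (Ndufb3), and under TMM 67 were. On CPM 1729 of all 3824 tested genes were below 0. After Ndufb3, the lowest nuclear members were Cox7a2l at -0.50, Ndufaf8 at -0.42 and Atp5h at -0.40. Ndufaf4 (0.29) and Ndufa4 (0.24) stood highest. TMM lowers all of these values by 0.17, which puts Ndufb3, Cox7a2l and Ndufaf8 past 1.5-fold. The X-linked Cox7b, Ndufa1 and Ndufb11 were at -0.34, -0.29 and -0.35 beside a nuclear median of -0.14, in the library that differed in Xist. Within classes the nuclear share was lower in CML in 7 of 7 classes, by 0.09 to 0.28.

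Between the imatinib libraries, mitochondrial members were higher in CML. Their sum was 0.38 higher in CML imatinib than WT imatinib (interval 0.374 to 0.388), with 0.14 under TMM, and 11 of 12 tested members were above 0, against 8 of 12 under TMM. Of all tested genes 1845 of 3914 were above 0 on CPM. mt-Co1 (0.55), mt-Cytb (0.53), mt-Nd2 (0.47) and mt-Co3 (0.43) led, mt-Nd4l was at -0.13 and mt-Nd5 at 0.04. The mitochondrial share was higher in CML in 6 of 6 classes, by 0.50 in GMP-like cells, 0.47 in monocyte and macrophage-like cells, 0.33 in mast and basophil-like cells and 0.15 in neutrophil-like cells. At the finer clustering the neutrophil-like class had 2.99% in WT imatinib and 4.98% in CML imatinib, a wider gap than the 1.93% and 2.14% of the main clustering. Nuclear members differed by -0.09 in sum on CPM, and no tested one was 1.5-fold or 2-fold apart, where 5.29% of all tested genes were 1.5-fold higher and 0.843% lower, and 2.32% were 2-fold higher and 0.179% lower. Their lowest values were -0.46 for Ndufc1 and -0.44 for Ndufa4, and their highest 0.37 for Ndufa10 and Ndufaf4. Under TMM 70 of 74 were below 0, and Ndufc1, Ndufa4, Ndufb8 and Uqcr11 were past 1.5-fold lower. Cox6a2, under the tested level, was 2.10-fold lower (interval 1.1 to 4.13).

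Genes that work with the chain were compared from separate lists. Complex II, which has no mitochondrial gene and links the chain to the citric acid cycle, summed to 779.5 CPM in WT untreated, 731.8 in WT imatinib, 702.8 in CML untreated and 719.8 in CML imatinib, with 0 of 4 subunits 2-fold apart in any comparison. Of 16 citric acid cycle genes, Dld was 2-fold higher in both imatinib pairs (1.2 in WT, 1.41 in CML), where 7.58% and 9.40% of all tested genes were. Suclg2 was 2-fold lower in CML (-1.12), where 7.95% of all tested genes were. Cycs, the electron carrier cytochrome c, was at 968 CPM in CML untreated and 504 in CML imatinib (-0.94). Its sum with Cyc1 was -0.67 in CML and -0.46 in WT, but 1 of the 2 genes was above 0 in each pair, in CML Cyc1. Lrpprc, which stabilises mitochondrial messengers, was at 45.1 and 90.6 CPM in WT untreated and imatinib and 50.7 and 104 in the CML pair, 1.01 and 1.04 higher. Atpaf2, an assembly factor of the ATP synthase head, was 1.47 and 1.89 higher and Cox17, a copper chaperone of Complex IV, 1.1 higher in CML. The imatinib ratios of these lists are on CPM and would move by -0.25 in WT and -0.32 in CML under TMM. That takes Dld in WT, Lrpprc in both pairs and Cox17 in CML below 2-fold.

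Ribosomal and stress transcripts moved with the same libraries. Mitochondrial ribosomal protein genes had medians of 0.16 in WT and 0.37 in CML. In WT 0 of 45 tested genes were 2-fold higher and 1 lower, and in CML 7 of 51 higher and 1 lower. Cytosolic ribosomal protein genes had medians of 0.37 and 0.41, with 9 of 78 and 11 of 78 higher and 1 and 2 lower. Of all tested genes 7.58% were 2-fold higher in WT and 9.40% in CML, and 5.45% and 7.95% lower. The nuclear members' medians of 0.30 and 0.37 lay between or near those of the ribosomal sets, and TMM moves all of these medians down alike. Dissociation and heat shock genes had a median of -1.37 in WT imatinib versus WT untreated, -2.18 in CML imatinib versus CML untreated and 1.06 in CML untreated versus WT untreated. Their part in the differences of chain transcripts was not tested. Myc, a regulator of mitochondrial biogenesis among other processes, was at 794 CPM in CML untreated and 284 in CML imatinib. The sum of the 8 biogenesis regulators, Myc among them, was lower in both pairs, -1.0 in CML and -0.53 in WT. Myc made 794 of its 1067 CPM in CML untreated and 284 of 532.6 in CML imatinib. Of the regulators tested, 2 of 4 were above 0 in CML and 1 of 3 in WT, so the sum does not describe them all.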

How the data were processed

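The authors deposited 1 matrix of genes by cells per library, whose values are a normalized signal that sums to about 2839 in nearly every cell. Partek 8.0, Bowtie 1.1.1 and the build GRCm38 (mm10) are named, without their roles, per the submitters' processing notes; the treatment of reads matching several loci, such as processed pseudogenes of nuclear members, is not stated there. Values were divided by each cell's smallest nonzero value, which gave whole UMIs for 100% of entries (tolerance 0.02). Each header holds an extra name, so cells were taken by column position. Cells were kept with at least 500 UMIs, 200 genes and at most 20% of UMIs from mt- genes, which left 3030 of 3033 (WT untreated), 4187 of 5625 (WT imatinib), 3032 of 3032 (CML untreated) and 5139 of 7132 (CML imatinib) cells.

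UMIs were summed per library and scaled to CPM. Log2 ratios have exact conditional binomial 95% intervals. A gene was called at 2-fold (1.5-fold beside it) if its higher library had 50 CPM and 50 UMIs or more. Cells were clustered with scanpy 1.11.5 (2000 variable genes, 30 components, 15 neighbours, Leiden at 0.5). A cluster's name needed at least 3 markers of a class among its 25 leading genes and at least 1 in the leading 10; these numbers, like the members and lists, were chosen with earlier results of these data known. Scrublet marked 0 cells in every library, so it did not work here, and doublets were not removed. TMM factors came from edgeR 4.0.16. The code for calls and intervals was run on counts simulated with known changes and counting error only. Such counts hold no variation between mice or cells, so the run checks the code alone. Named genes were all mitochondrial members, the 6 highest and 6 lowest nuclear ratios per comparison, isoform pairs, X-linked members and the 2 largest ratios per list; other genes named were chosen after their values were seen. Motif letters were shortened to cores after a first search with longer forms. Coordinates are from GENCODE M21.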

Additional observations from a re-analysis of the deposited data

Results flagged for a closer look

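In 4 members the imatinib libraries differed from the untreated libraries in opposite directions in CML and WT, which was not tested because each group had 1 library. Cox7a2l had a log2 ratio of 0.46 in CML and -0.22 in WT, and 0.14 and -0.47 under TMM scaling. Erythroid-like cells were its lowest class in CML untreated, at 166.8 CPM, and its highest in CML imatinib, at 543.9 CPM. WT imatinib had 11 such cells, too few to be described. The part of this class in the Cox7a2l ratios was not tested. mt-Nd3 was at 0.45 in CML and -0.10 in WT, and 0.13 and -0.35 under TMM. Within CML classes mt-Nd3 was at 0.65 in monocyte and macrophage-like cells, 0.02 in GMP-like cells, -0.01 in cluster 2, -0.05 in cluster 5 and -2.11 in erythroid-like cells. mt-Co3 was at 0.21 in CML and -0.45 in WT, but at -0.12 and -0.70 under TMM, where both are negative. Within CML classes mt-Co3 was between -0.24 (cluster 5) and 0.06 (monocyte and macrophage-like cells). Cox7c, a small subunit of Complex IV, was at 0.06 in CML and -0.06 in WT, and at -0.26 and -0.32 under TMM.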

How the results depend on the processing

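Values are log2 ratios in a fixed order: CML over WT (both untreated), then imatinib over untreated in CML and in WT, then CML over WT (both imatinib), and settings that moved a value by less than its counting interval are left out. TMM scaling gave -0.29, -0.76, -1.19 and 0.14 for the summed mitochondrial members and -0.31, -0.15, -0.14 and -0.33 for the nuclear members, which turned both imatinib comparisons of the nuclear sum; the cause was not tested. It left 0 nuclear members 2-fold apart. Cells of 1000 to 3000 UMIs gave mitochondrial sums of -0.08, -0.40 and 0.45 (first, second and last comparison), nuclear sums of -0.13, 0.35, 0.29 and -0.07, and 15 and 11 nuclear members 2-fold apart in the CML and WT imatinib comparisons. Over all kept cells the counts at 1.5-fold were 23 (21 higher and 2 lower) and 17 (all higher), where 19.1% and 17.1% of all tested genes were higher. Scaling without ribosomal, mt- and haemoglobin genes gave mitochondrial sums of -0.16, -0.40 and -0.95 and nuclear sums of -0.19, 0.20 and 0.10 in the first 3 comparisons. The mean of single-cell CPM gave mitochondrial sums of -0.13, -0.36, -0.92 and 0.43 and, in the last 3 comparisons, nuclear sums of 0.22, 0.13 and -0.05. Leaving out mature-cell clusters gave mitochondrial sums of -0.14, -0.30, -0.95 and 0.50 and nuclear sums of -0.18 (CML against WT untreated), 0.23 (CML imatinib) and -0.06 (between imatinib libraries). Cells with at most 10% mt- UMIs gave mitochondrial sums of -0.11, -0.52, -0.92 and 0.28. At least 1000 UMIs per cell gave -0.45 for the mitochondrial sum in CML imatinib, and 0.13 and -0.10 for the nuclear sum of the last 2 comparisons. Without the 5% highest doublet scores the mitochondrial sum was -0.45 in CML imatinib and 0.37 between imatinib libraries. These scores are from the Scrublet run that did not work here, so the values cannot show what doublets contribute. Without cells of shared names, an alternative added after the data were seen, mitochondrial sums were -0.43, -0.92 and 0.36 in the last 3 comparisons. No paired analysis was possible because each group had 1 library. Class shares moved by at most 1.2-fold under the other cell filters and thinning, and by up to 2.33-fold (neutrophil-like cells of CML imatinib) at Leiden resolution 1.0. Depth limits mt-Nd6 and the isoforms under 2 CPM, whose ratios were not read.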
